A study of Homo sapiens with 60 samples.

Results

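The genes described here are 42 members of the interferon response, chosen by symbol and followed through HT29 cells treated with herbal water extracts. Of these, 41 had enough counts to be tested among 16356 genes of the 60675 in the deposited table. They comprise 3 RNA sensors, 4 transcription factors, 7 IFIT and IFITM genes, 4 OAS genes, 2 MX genes, 4 genes of the ISG15 system, 4 nucleotide and RNA enzymes, PARP9, PARP14 and DTX3L, and 11 other effectors. The 1 gene not tested, TRIM22, had 0 to 7 counts per library. HT29 is an established line from a human colorectal adenocarcinoma. The vehicle group received dimethyl sulfoxide, given as 0.1% in the sample labels and as 2% in the series' design text, and every group was harvested after 24 h. Treated groups received Cinnamomi Cortex (cinnamon bark), Astragali Radix (astragalus root), Cnidii Rhizoma (cnidium rhizome), Rehmanniae Radix Preparata (processed rehmannia root), or 1 of 2 mixed formulae, Sagunja-tang and Samul-tang. Each was used at a nominal 500, 100 and 20 µg/mL with 3 libraries per dose, and Paeoniae Radix (peony root) had 1 library per dose. The design text adds that extracts inhibiting cells below the top dose were used at lower concentrations, so the labelled dose may not be the dose applied. As background, Sagunja-tang is classically made from ginseng, Atractylodes, Poria and licorice. Samul-tang is classically made from rehmannia, angelica, cnidium and peony.

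Interferons are secreted when RIGI and IFIH1 (MDA5) in the cytosol detect viral RNA, and they act on neighbouring cells through surface receptors. Type I and type III interferon receptors activate a complex that contains STAT2 and IRF9, which enters the nucleus and binds the interferon-stimulated response element, ISRE, in the promoters of target genes. The targets block viral entry, degrade viral RNA, stop its translation or feed back on the signal. Many are also transcribed at a low level without added interferon, partly through STAT2 and IRF9 alone.

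The 60 libraries held 20459346 to 36253747 counts each. The sample codes divide 57 replicated libraries into 2 sets: 27 libraries in the first and 30 in the second. The first holds the vehicle and all of Rehmanniae Radix Preparata and Cnidii Rhizoma, the second both formulae. Astragali Radix and Cinnamomi Cortex are split, with replicate 1 in the first set and replicates 2 and 3 in the second. What the codes stand for is not stated, and the titles place all libraries in a single batch. Both formulae lie in the second set and the vehicle in the first, so a formula cannot be told apart from its set in a comparison with the vehicle alone. Sagunja-tang against Samul-tang is within the second set. Fits with a set term, which takes the set difference from Cinnamomi Cortex and Astragali Radix, are given for each extract compared with the vehicle where it has a called member or libraries in both sets. The 18 vehicle comparisons share the same 3 vehicle libraries. Nothing in the labels says that the 3 libraries of a group came from separate cultures, and a p-value here is set against library spread, which may be technical. On the first principal component over 15054 genes with a mean of at least 10 counts, with 26.9% of the variance, the sets lay on opposite sides of 0, except that replicate 2 of Cinnamomi Cortex at 500 µg/mL, of the second set, lay among the first. Replicate 2 of the vehicle stood apart in the interferon response genes: 36 of the 41 members were above the vehicle mean in it, against 13 in replicate 1 and 10 in replicate 3. In bulk libraries fewer cells expressing a gene and less RNA per cell cannot be told apart. The 9 colon epithelium markers, among them EPCAM and CDX2, summed to 11100 to 11600 CPM (counts scaled to library size as parts of 1e+06) in the vehicle. Those of leukocytes summed to 4.37 to 4.92 CPM over 10 genes, of which 4 were below 0.1 CPM in every library.

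Apart from IFNE, the interferon genes counted here had at most 14 counts in any library. IFNB1, the type I interferon induced by RNA sensors, had 18 counts in all 60 libraries together and at most 2 in any. IFNL1, a type III interferon that acts on epithelium, had 55 counts with at most 3 in any library, IFNL2 had 11 and IFNL3 had 7. IFNA1, another type I interferon, had 204 counts with at most 14 in any library. IFNE, an interferon of epithelial surfaces, had 8830 counts in all and up to 233 in a library, and was the only 1 of them to pass the filter on low counts.

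Per kilobase of exon, the most abundant member in the vehicle was BST2 (tetherin, which holds budding virus at the cell surface), at 31.5 ± 1.7 CPM per kb (SD, n = 3). IFITM2, which hinders viral fusion in endosomes, followed at 19.1 ± 1.58, and ISG15, a ubiquitin-like modifier, stood at 17.3 ± 2.59 CPM per kb, a difference within their SDs. DTX3L, a ubiquitin ligase, was at 15.7 ± 0.0727, its neighbour PARP14 at 14.8 ± 0.101, OAS3 at 12.7 ± 0.748 and SAMD9 at 11.8 ± 0.73 CPM per kb. The sensors were lower on the same scale, RIGI at 3.03 ± 0.168, IFIH1 at 2.23 ± 0.318 and DHX58 (LGP2, a regulator of the other two) at 0.718 ± 0.0882 CPM per kb. At the bottom lay IFI44L at 0.0365 ± 0.0284, SAMD9L at 0.0353 ± 0.0134 and TRIM22 at 0.0159 ± 0.00854 CPM per kb. Members thus ranged from RNAs such as PARP14 with 2473 to 5429 counts per library to RNAs such as RSAD2 with 0 to 17, for which only large changes were detectable.

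RefSeq promoter windows, 250 bases before to 50 after the start on GRCh38.p14, were at hand for 33 of the 42 members. The letters GAAA, any 2 bases and GAAA again, a core of the ISRE searched on both strands, occurred in 21 of the 33 (63.636%) and in 1255 of all 35116 windows (3.574%). The letters TTC, any 3 bases and GAA, a site of STAT dimers, which can overlap the first motif, occurred in 10 of the 33 (30.303%) and in 7.657% of all windows. The following stretches are shown for members whose levels differed between treatments below. Each is given 5′ to 3′ on the gene's strand, with the ISRE letters in capitals (TTTC, 2 bases and TTTC where the motif lies on the other strand). A match is a description of the letters, not of binding. In the GENCODE release 29 annotation the PARP14 stretch lies within the first exon of a longer PARP14 transcript, in its 5′ untranslated region, and the other 6 lie outside the exons of their genes.
OAS3, chr12:112938321-112938350, plus strand: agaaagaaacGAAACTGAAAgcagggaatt
DDX60, chr4:168318821-168318850, minus strand: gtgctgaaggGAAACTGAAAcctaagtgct
IFIT1, chr10:89392497-89392539, plus strand: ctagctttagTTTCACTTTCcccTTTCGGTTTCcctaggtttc
EPSTI1, chr13:42992272-42992301, minus strand: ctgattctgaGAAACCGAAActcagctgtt
PARP14, chr3:122680800-122680829, plus strand: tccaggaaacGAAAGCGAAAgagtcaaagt
SAMD9, chr7:93118096-93118125, minus strand: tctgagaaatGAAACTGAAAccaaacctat
IFIT3, chr10:89327831-89327860, plus strand: agccgttaggTTTCATTTTCctcctcccaa
OAS3, DDX60 and SAMD9 share the same 10 letters, GAAACTGAAA, and the IFIT1 window holds the motif at 2 places 3 bases apart. The windows of OAS3, DDX60 and IFIT3 also hold it at 2 places each, of which only the first is shown. Other members called below, such as IFI27, IFI44 and MX1, hold it too and are not shown. The windows of IRF9, OAS1, CMPK2, STAT2, RIGI, IRF1 and PARP9 did not hold the motif.

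The genes the results turn on are named here by their GENCODE 29 positions on GRCh38. OAS1 (ENSG00000089127, chr12:112906777-112933222), OAS3 (ENSG00000111331, chr12:112938352-112973249) and OAS2 (ENSG00000111335, chr12:112978395-113011723) follow each other on the plus strand. PARP9 (ENSG00000138496, chr3:122527924-122564577, minus strand), DTX3L (ENSG00000163840, chr3:122564238-122575203) and PARP14 (ENSG00000173193, chr3:122680618-122730840) lie close together, and the first 2 overlap at their starts. IRF9 is ENSG00000213928 (chr14:24161053-24166565), MX1 is ENSG00000157601 (chr21:41420304-41459214) and IFI27 is ENSG00000165949 (chr14:94104836-94116698). DDX60 is ENSG00000137628 (chr4:168216293-168318807) and SAMD9 is ENSG00000205413 (chr7:93099513-93118023). All are protein-coding.

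Averaged over the 41 members, the 9 Sagunja-tang libraries were the highest group. Their mean log2 difference from the vehicle mean ran from 0.16 to 0.40 with a median of 0.25. The 9 Samul-tang libraries ran from -0.21 to 0.03, and the vehicle libraries themselves from -0.10 to 0.15. Cinnamomi Cortex ran from -0.23 to 0.01, with its 3 libraries at 500 µg/mL at -0.21, -0.23 and -0.20. Astragali Radix ran from -0.11 to 0.15, Cnidii Rhizoma from -0.15 to 0.08, Rehmanniae Radix Preparata from -0.18 to 0.04, and the 3 Paeoniae Radix libraries from -0.10 to 0.08. Every Sagunja-tang library lay above every library of each other group on this average, the closest being replicate 2 of the vehicle and 1 library of Astragali Radix at 0.15.

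**Figure D1:**
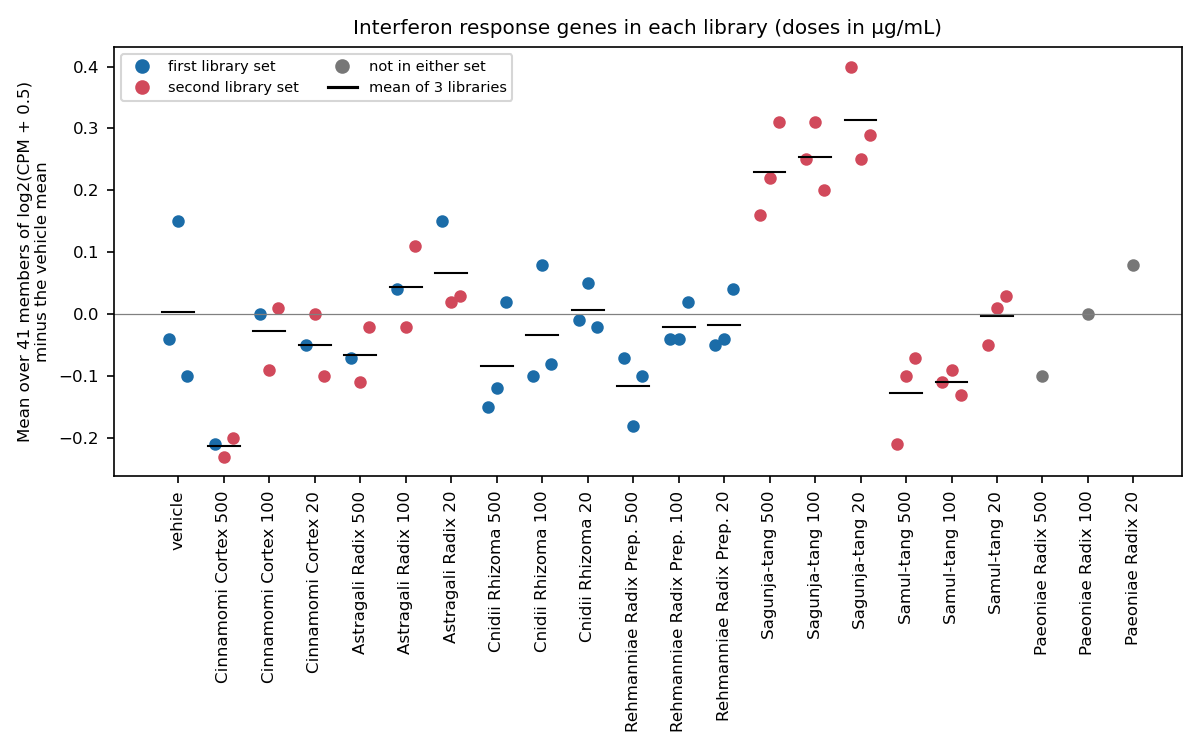
Mean over the 41 tested members of log2(CPM + 0.5) minus the vehicle mean (vertical axis) in each library, by group and dose in µg/mL (horizontal axis). Points are libraries coloured by library set and black lines are means of 3; Sagunja-tang libraries lie between 0.16 and 0.40, and those of Samul-tang between -0.21 and 0.03.

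Sagunja-tang gave higher levels of interferon response genes than Samul-tang at every dose, with OAS2, OAS3, IRF9 and MX1 called at all 3. At 500 µg/mL 9 of the 41 members were higher and 0 lower by edgeR's quasi-likelihood test at an adjusted p under 0.05, against 0.287% of all genes higher and 0.0306% lower. At 100 µg/mL 8 were higher and 0 lower (0.251% and 0% of all genes), and at 20 µg/mL 7 were higher and 0 lower (0.238% and 0%). DESeq2 called 9, 8 and 7 higher and 0 lower, and at an unadjusted p under 0.05 edgeR had 32, 29 and 24 higher and 0 lower, against 2.07%, 2.16% and 1.72% of all genes higher and 1.99%, 1.68% and 1.44% lower. At each dose 39 of 41 log2 differences were above 0, and their median was 0.37, 0.31 and 0.27, where that of all genes was 0.00. All 3 Sagunja-tang libraries exceeded all 3 Samul-tang libraries in 29, 30 and 21 members, and in 5.72%, 4.07% and 5.02% of all genes. The reverse held in 0 members and in 4.82%, 4.04% and 4.49% of all genes. In 17 members the Sagunja-tang libraries were the higher ones without overlap at all 3 doses. The share of all genes that did so at all 3 doses is not given here, so this count has no background beside it. The summed leukocyte markers were 5.07 to 6.20 CPM over the Sagunja-tang libraries and 4.24 to 5.45 over those of Samul-tang, and the part of this in the result was not tested.

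Among the transcription factors, IRF9, the DNA-binding subunit of the STAT complex, was higher and its partner STAT2 was not. IRF9 had 12.3, 12.7 and 13.2 CPM with Sagunja-tang at 500 µg/mL and 7.33, 9.22 and 9.10 CPM with Samul-tang. At 100 µg/mL it had 13.6, 13.1 and 12.0 against 8.34, 8.11 and 9.52 CPM, and at 20 µg/mL 15.8, 13.5 and 13.5 against 9.38, 10.0 and 10.7 CPM. The formulae did not overlap at any dose, and the log2 differences were 0.57 ± 0.11 (SE, adjusted p = 0.0016), 0.58 ± 0.11 (adjusted p = 0.0019) and 0.51 ± 0.10 (adjusted p = 0.0083). The call at 500 µg/mL was lost without replicate 1 of Samul-tang (adjusted p = 0.058) and that at 20 µg/mL without replicate 1 of Sagunja-tang (adjusted p = 0.18). IRF9 shares its locus on the same strand with an overlapping protein-coding gene, so the split of reads between them is uncertain. STAT2 differed by -0.01 ± 0.09, -0.03 ± 0.09 and -0.02 ± 0.09 on the log2 scale. IRF1 and IRF7, which act in the induction of interferons and their targets, were not called, with log2 differences of 0.09 to 0.20 and 0.06 to 0.22.

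In the OAS family, whose 2′-5′-oligoadenylates activate RNase L against viral RNA, 3 of 4 members were higher at 500 and 100 µg/mL and 2 at 20 µg/mL. OAS2 showed the largest difference of the family. It had 4.11, 4.91 and 5.95 CPM with Sagunja-tang against 1.56, 1.52 and 2.48 with Samul-tang at 500 µg/mL, and 4.00, 5.62 and 4.68 against 1.87, 1.98 and 1.83 CPM at 100 µg/mL. At 20 µg/mL the values were 6.58, 4.64 and 5.59 against 2.67, 2.55 and 2.24 CPM. The groups stood apart at each dose, by log2 differences of 1.42 ± 0.22 (adjusted p = 7.0e-05), 1.34 ± 0.23 (adjusted p = 0.00038) and 1.16 ± 0.21 (adjusted p = 0.0012).

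OAS3, the most abundant member of the family, showed a smaller difference with a tighter spread. Its Sagunja-tang libraries had 123, 127 and 130 CPM at 500, 123, 137 and 129 at 100, and 149, 125 and 142 CPM at 20 µg/mL. Its Samul-tang libraries had 93.3, 97.1 and 104, then 110, 103 and 102, then 107, 107 and 105 CPM. The log2 differences were 0.37 ± 0.05 (adjusted p = 1.1e-05), 0.31 ± 0.05 (adjusted p = 0.00039) and 0.39 ± 0.05 (adjusted p = 3.9e-06). OAS2 and OAS3 kept these calls with each of the 6 libraries left out in turn, at all 3 doses. OAS1 was higher at 500 (0.39 ± 0.08, adjusted p = 0.012, lost at 0.33 without replicate 1 of Samul-tang) and at 100 µg/mL (0.49 ± 0.08, adjusted p = 0.00048), and differed by 0.27 ± 0.08 at 20 µg/mL, where the groups overlapped. OASL, which lacks the synthetase activity, was not called, with log2 differences of 0.12 to 0.23. OAS1, OAS2 and OAS3 lie side by side on chromosome 12 under an antisense transcript, and since the strand setting of the counting is not given in the sources used here, its reads could be among theirs.

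MX1, a GTPase that traps viral nucleocapsids, had 7.34, 8.15 and 8.39 CPM with Sagunja-tang at 500 µg/mL against 4.64, 4.81 and 5.31 with Samul-tang. At 100 µg/mL it had 8.01, 10.0 and 7.71 against 5.19, 5.73 and 4.18 CPM, and at 20 µg/mL 12.2, 8.08 and 9.13 against 5.88, 6.67 and 5.97 CPM. Its groups did not overlap, with log2 differences of 0.69 ± 0.14 (adjusted p = 0.0046), 0.77 ± 0.14 (adjusted p = 0.0012) and 0.66 ± 0.13 (adjusted p = 0.0061). Each of these calls was lost with 1 library left out, at an adjusted p of 0.058 without replicate 1 of Samul-tang at 500, 0.073 without replicate 2 of Sagunja-tang at 100 and 0.39 without replicate 1 of Sagunja-tang at 20 µg/mL. Its relative MX2 had 7 to 45 counts per library and log2 differences of 0.86 to 0.98, not called.

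DDX60, a helicase that has been linked to RNA sensing, was higher at 500 and 20 µg/mL. It had 5.86, 6.44 and 6.51 CPM with Sagunja-tang at 500 µg/mL against 3.90, 4.23 and 3.88 with Samul-tang, and 7.56, 6.81 and 7.81 against 4.05, 4.56 and 4.67 CPM at 20 µg/mL. The log2 differences were 0.65 ± 0.11 (adjusted p = 0.00028) and 0.74 ± 0.11 (adjusted p = 1.1e-05), and both calls held with each library left out in turn. At 100 µg/mL the groups again did not overlap, and the log2 difference was 0.35 ± 0.11 (adjusted p = 0.43). CMPK2, a nucleotide kinase of mitochondria, was called at 500 µg/mL (0.77 ± 0.18, adjusted p = 0.036), but not by DESeq2 (adjusted p = 0.19). Its neighbour RSAD2 (viperin), which makes a chain-terminating nucleotide, differed by 0.74 to 0.92 on the log2 scale without a call, on 0 to 17 counts per library.

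Of the other effectors, IFI27, a mitochondrial membrane protein, was higher at 100 and 20 µg/mL. Its Sagunja-tang libraries had 15.7, 14.9 and 14.2 CPM at 100 and 19.1, 12.8 and 16.3 at 20 µg/mL, and its Samul-tang libraries 10.0, 8.67 and 10.0, and 9.51, 12.3 and 9.48 CPM. The log2 differences were 0.64 ± 0.15 (adjusted p = 0.033, 0.35 without replicate 2 of Samul-tang) and 0.62 ± 0.14 (adjusted p = 0.034, 0.81 without replicate 1 of Sagunja-tang). Calls at a single dose were made for IFIT1, which binds RNA lacking a normal cap (0.76 ± 0.14 at 500 µg/mL, adjusted p = 0.00074), and PARP14, an ADP-ribosyltransferase (0.18 ± 0.04 at 20 µg/mL, adjusted p = 0.021). IFIT1 kept its call with each library left out, and PARP14 lost it without replicate 3 of Sagunja-tang (adjusted p = 0.19). The scarce or less known IFI44L (2.01 ± 0.46 at 500 µg/mL), IFI44 (0.64 ± 0.15 at 100 µg/mL) and EPSTI1 (2.21 ± 0.51 at 100 µg/mL) were each called at 1 dose too. Those 3 calls were lost with 1 library left out, at adjusted p values up to 0.32 without replicate 3 of Sagunja-tang, 0.27 without replicate 2 of Sagunja-tang and 0.34 without replicate 2 of Samul-tang, and DESeq2 gave 0.10 for EPSTI1.

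Of the 28 members without a call at any dose, most had differences above 0 and wide errors or small sizes. The sensor IFIH1 differed by 0.31 ± 0.09, 0.37 ± 0.10 and 0.32 ± 0.09 and RIGI by 0.17 ± 0.08, 0.31 ± 0.08 and 0.19 ± 0.08 on the log2 scale. Neither was called, although their formula groups did not overlap at any dose. HERC6, an E3 ligase related to the one that attaches ISG15, differed by 0.37, 0.24 and 0.41, and ISG15 itself by 0.29, 0.29 and 0.18. IFI6, an inhibitor of flavivirus replication, differed by 0.60 ± 0.17, 0.66 ± 0.16 and 0.58 ± 0.16 without overlap, and passed in DESeq2 at 100 µg/mL (adjusted p = 0.039). XAF1, on 0 to 32 counts per library, differed by 1.85 ± 0.76, 2.30 ± 0.95 and 1.77 ± 0.67. BST2 differed by 0.23, 0.08 and 0.10, and SAMD9 by 0.16, 0.24 and 0.24. HERC5, the ligase that attaches ISG15, had values below 0 at 500 and 100 µg/mL (-0.37 ± 0.29 and -0.06 ± 0.30). USP18, which removes ISG15 and restrains the interferon receptor, differed by 0.13 to 0.15 with overlapping groups. Leaving out 1 library in turn gave 4 to 9 called members at 500 µg/mL (lowest without replicate 1 of Samul-tang), 4 to 7 at 100 µg/mL (lowest without replicate 2 of Sagunja-tang) and 3 to 10 at 20 µg/mL (lowest without replicate 1 of Sagunja-tang).

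**Figure D2:**
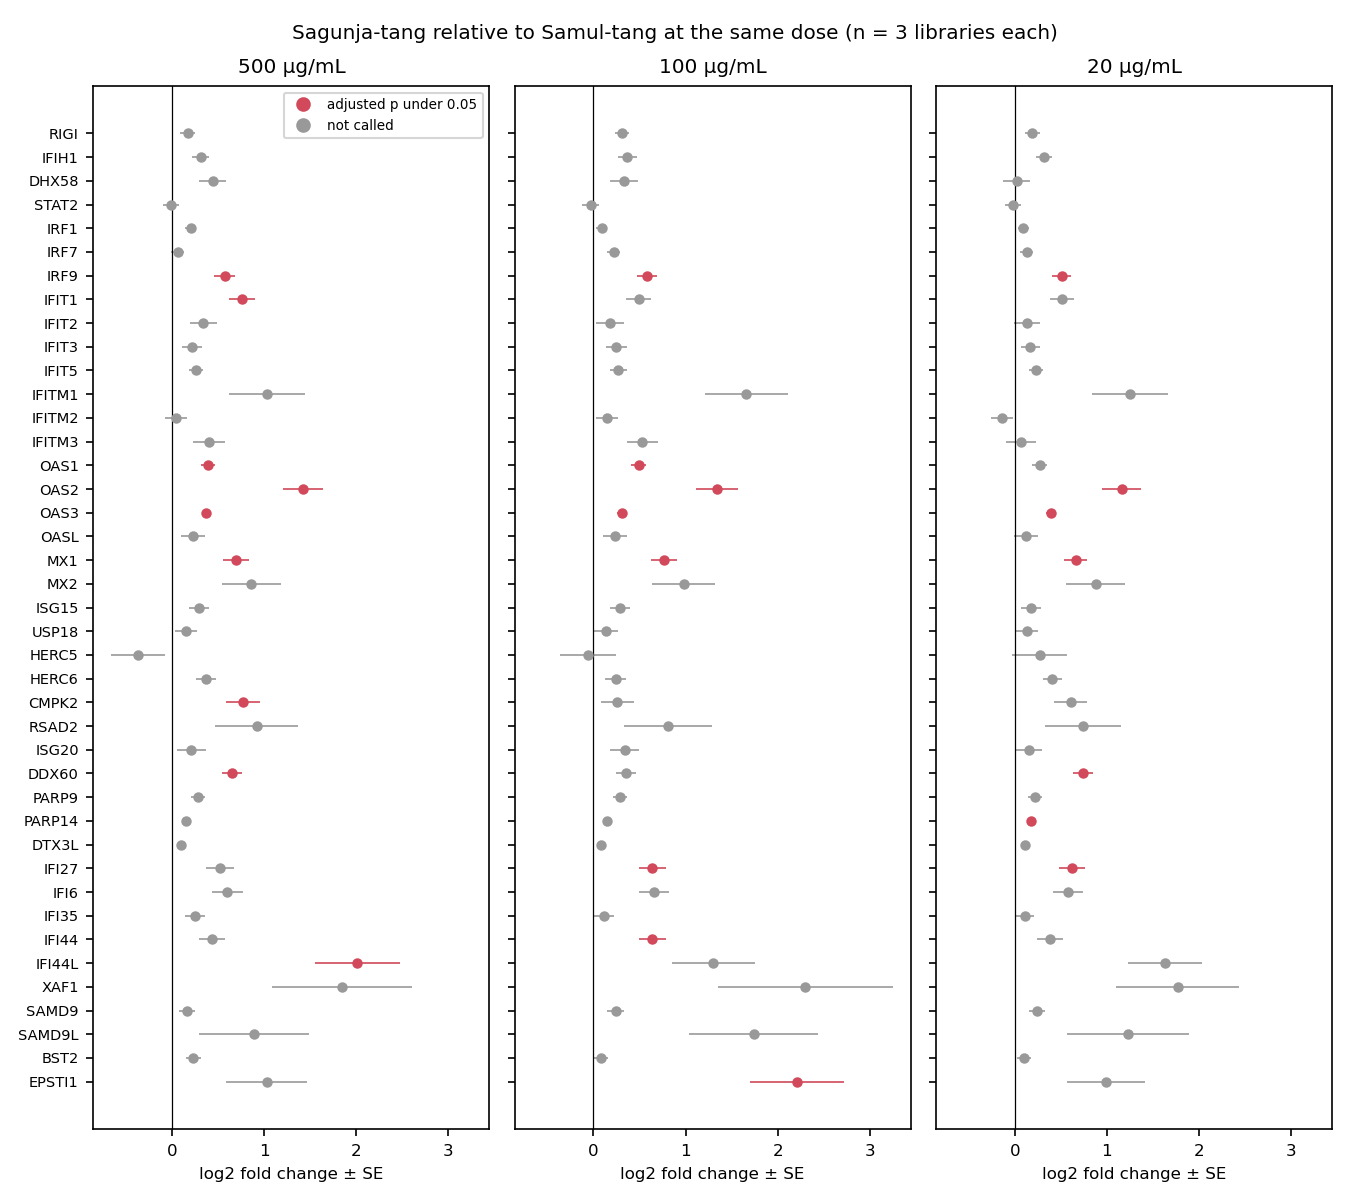
Log2 fold change of each tested member in Sagunja-tang relative to Samul-tang at the same dose (horizontal axis, bars are ± SE), with members grouped by role on the vertical axis. Red marks the 9, 8 and 7 members called at 500, 100 and 20 µg/mL; 39 of the 41 points lie right of 0 in each panel.

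Of 14 tested genes for interferon receptors and their signalling, edgeR called 0 between the formulae at any dose, with median log2 differences of 0.00, 0.01 and -0.01. The receptor chain IFNAR1 differed by 0.00 ± 0.05, 0.06 ± 0.05 and -0.01 ± 0.05, and MAVS, the adaptor of the RNA sensors, by 0.02 ± 0.05, -0.04 ± 0.05 and 0.02 ± 0.05. Of 38 other interferon-stimulated genes tested, 1, 1 and 0 were higher: PLSCR1, a scramblase, by 0.25 ± 0.05 at 500 and 0.22 ± 0.05 at 100 µg/mL, where the call was lost without replicate 3 of Sagunja-tang (adjusted p = 0.26). The medians of the 38 were 0.10, 0.07 and 0.06. Of 16 antigen presentation genes, 1 was higher, at 20 µg/mL: NLRC5, the activator of MHC class I genes, by 1.13 ± 0.26 (adjusted p = 0.034). DESeq2 did not call it (adjusted p = 0.24), and the call was lost without replicate 3 of Samul-tang (adjusted p = 0.52). The 13 mitochondrially encoded mRNAs, which were lower with both formulae than in the vehicle, were not called between them.

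Against the vehicle, the Sagunja-tang libraries were higher for IFI27, CMPK2, OAS3 and OAS2 at every dose in the fit without a set term. In that fit 10, 12 and 18 of 41 members were higher at 500, 100 and 20 µg/mL and 0, 0 and 1 lower (IFITM2, by -0.40), where 11.7%, 9.34% and 9.68% of all genes were higher and 8.50%, 7.23% and 8.85% lower. With the set term 5, 4 and 8 members were higher and 0 lower, where 1.08%, 0.416% and 0.507% of all genes were higher and 1.04%, 0.245% and 0.0978% lower. Called at all 3 doses with the set term were IRF9 (0.53, 0.54 and 0.69 on the log2 scale), OAS3 (0.24, 0.27 and 0.37), CMPK2 (1.16, 1.01 and 1.16) and IFI27 (0.65, 0.72 and 0.82). At 500 µg/mL IRF9 was called only with the set term, with means of 10.4 CPM in the vehicle and 12.7 with Sagunja-tang. OAS2 was called with the set term at 500 and 20 µg/mL (1.00 and 1.15), and MX1, DDX60 and IFI44L at 20 µg/mL (0.75, 0.60 and 2.13). In CPM, IFI27 had 8.21, 8.28 and 7.37 in the vehicle and 13.9, 12.8 and 15.8 with Sagunja-tang at 500 µg/mL, and CMPK2 0.643, 1.15 and 1.00 against 1.71, 1.93 and 2.02. Neither gene's groups overlapped. Samul-tang also lay above the vehicle for both. CMPK2 averaged 0.931 CPM in the vehicle and 1.1, 1.41 and 1.24 with Samul-tang at 500, 100 and 20 µg/mL. IFI27 averaged 7.96 CPM in the vehicle and 9.92, 9.57 and 10.4 with Samul-tang. Below the vehicle were CMPK2 with Astragali Radix (0.91) and IFI27 with Cinnamomi Cortex (7.52), both at 500 µg/mL. Without replicate 2 of the vehicle 14, 13 and 19 members were called. Without replicate 3 of the vehicle 5 were called at 500 and 11 at 20 µg/mL, and without replicate 2 of Sagunja-tang 4 at 100 µg/mL.

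**Figure D3:**
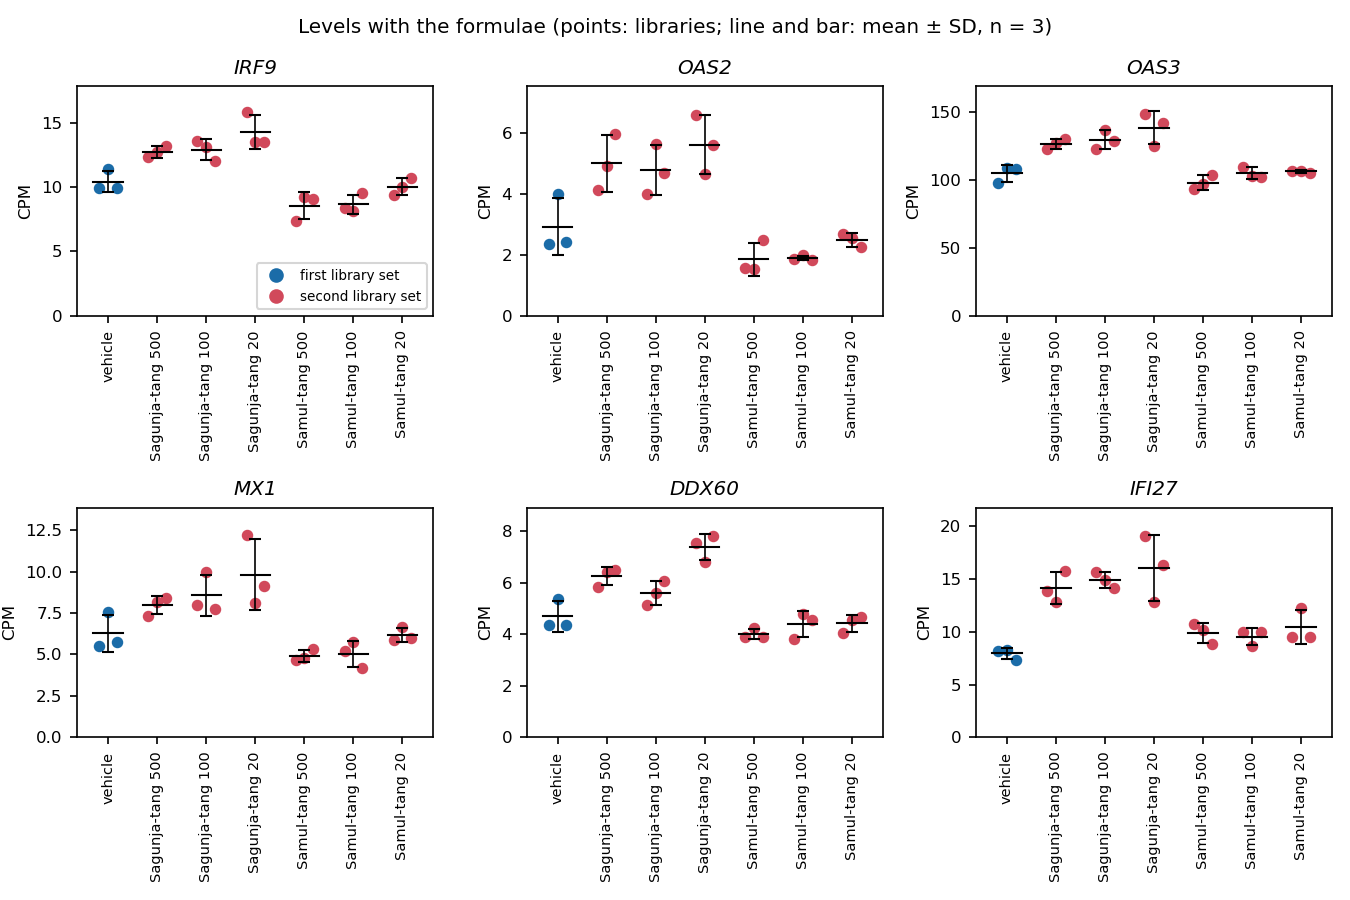
CPM (vertical axes, from 0) of IRF9, OAS2, OAS3, MX1, DDX60 and IFI27 in each library of the vehicle and of both formulae at 500, 100 and 20 µg/mL (horizontal axes). Points are libraries coloured by library set, lines and bars are mean ± SD of 3; IRF9, OAS2, OAS3 and MX1 in Sagunja-tang lie above Samul-tang at each dose.

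Several members differed between the library sets. Estimated from Cinnamomi Cortex and Astragali Radix, the second set was higher for STAT2 (0.23 ± 0.05 on the log2 scale), ISG15 (0.24 ± 0.06), BST2 (0.17 ± 0.04) and IFI35 (0.17 ± 0.06). It was lower for SAMD9 (-0.28 ± 0.04), IFITM3 (-0.36 ± 0.08), IRF9 (-0.24 ± 0.06) and IFITM2 (-0.20 ± 0.07). These 8 of 41 members compare with 34.5% of all genes called between the sets. STAT2 was called against the vehicle with Sagunja-tang at each dose (0.28, 0.30 and 0.37) and with Samul-tang at each dose (0.28, 0.34 and 0.39). With the set term its values were 0.04 to 0.14 and 0.05 to 0.16, none called. The sum of the mitochondrially encoded mRNAs was 87700 to 119000 CPM in the vehicle, 57000 to 73300 over the doses of Sagunja-tang and 56600 to 74700 over those of Samul-tang, and its part in the vehicle comparisons was not tested.

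At 500 µg/mL PARP14, SAMD9 and a few other members were lower with Samul-tang than in the vehicle in the fit without a set term. At 100 and 20 µg/mL the share of members that were lower was no higher than that of all genes. That fit had 1, 3 and 1 members higher and 6, 4 and 1 lower at 500, 100 and 20 µg/mL, where 10.2%, 12.0% and 5.85% of all genes were higher and 8.30%, 9.94% and 5.11% lower. At 500 µg/mL the lower ones were PARP14 (-0.19 ± 0.04), DTX3L (-0.17 ± 0.04), PARP9 (-0.28 ± 0.08), SAMD9 (-0.34 ± 0.09), IFITM3 (-0.51 ± 0.17) and IFIT1 (-0.43 ± 0.14). With the set term edgeR called 0 members at every dose (0.648%, 0.373% and 0.306% of all genes higher, 0.569%, 0.177% and 0.0611% lower), with 10, 2 and 0 lower and 0, 1 and 1 higher at an unadjusted p under 0.05, which 13.0%, 10.8% and 7.61% of all genes passed. PARP14 then differed by -0.16 (adjusted p = 0.068) and SAMD9 by -0.06 at 500 µg/mL. In the fit without it DESeq2 called 11, 9 and 3 members, and without replicate 2 of the vehicle edgeR called 4, 4 and 1. The shares of all genes for these counts are not given here, so they cannot be set against a background.

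No member passed a test of change with dose in the formulae. Between 500 and 20 µg/mL, edgeR called 0 members within Sagunja-tang (0.00611% of all genes called in either direction) and 0 within Samul-tang (0.141%). DESeq2 also called 0 in both, and at an unadjusted p under 0.05 edgeR had 6 lower with Sagunja-tang (9.77% of all genes in either direction), and 1 higher and 12 lower with Samul-tang (6.54%). The test of whether the dose change differed between the formulae called 0 members (0% of all genes) by edgeR, 0 by DESeq2 and 0 at the unadjusted threshold of 0.05 (2.71% of all genes).

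A group of members led by PARP14, SAMD9 and DTX3L was lower with Cinnamomi Cortex at 500 µg/mL than in the vehicle. Against the vehicle 12 of 41 were lower and 0 higher, where 6.69% of all genes were lower and 6.22% higher. The median log2 difference was -0.26 against 0.00 for all genes, and 35 of 41 were below 0. With the set term 9 were lower and 0 higher (5.99% and 5.80% of all genes), of which 8 were among the 12 and the other was OAS3 (-0.17). Without replicate 2 of the vehicle 8 were called, and without replicate 2 of Cinnamomi Cortex 10. At 100 µg/mL 4 were lower and 0 higher (4.25% and 3.83% of all genes): SAMD9, PARP14, DTX3L (-0.16) and IFIT5 (-0.29), and with the set term 2 lower and 0 higher (1.01% and 0.501%), SAMD9 and PARP14. Without replicate 2 of Cinnamomi Cortex at 100 µg/mL the count was also 2. At 20 µg/mL edgeR called 0 (1.71% of all genes in either direction), while DESeq2 called 1 lower, and 1 was higher and 6 lower at edgeR's unadjusted p under 0.05 (17.9% of all genes). The fit with the set term called 0 there too (0.220% of all genes).

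PARP9, PARP14 and DTX3L form a cluster on chromosome 3 and act together, PARP9 and DTX3L as a complex that marks chromatin and viral proteins. PARP14 had 155, 157 and 155 CPM in the vehicle. With Cinnamomi Cortex it had 117, 115 and 116 CPM at 500, 140, 128 and 132 at 100 and 145, 141 and 152 at 20 µg/mL. Each dose lay below the vehicle without overlap, by -0.42 ± 0.04 (adjusted p = 4.9e-11) at 500 and -0.22 ± 0.04 (adjusted p = 0.00055) at 100 µg/mL on the log2 scale. The values with the set term were -0.40 and -0.20, and the 20 µg/mL group was not called.

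DTX3L had 91.5, 92.3 and 92.1 CPM in the vehicle and 77.5, 78.1 and 75.4 CPM at 500 µg/mL, a log2 difference of -0.26 ± 0.04 (adjusted p = 3.5e-05). At 500 µg/mL it was also below the vehicle with Astragali Radix (mean 83.3), Cnidii Rhizoma (87.1), Samul-tang (81.7) and Sagunja-tang (87.6). With Sagunja-tang at 20 µg/mL it averaged 94.6 CPM. PARP9 had 36.5, 39.5 and 41.4 against 30.9, 33.6 and 27.6 CPM, a difference of -0.34 ± 0.08 (adjusted p = 0.0039, 0.061 without replicate 3 of Cinnamomi Cortex). PARP9 and DTX3L share a promoter region on opposite strands and overlap, so their counts may not be independent.

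SAMD9, a cytoplasmic inhibitor of poxvirus and of translation, showed the largest drop among the abundant members. It had 78.6, 86.6 and 77.4 CPM in the vehicle and 54.1, 47.1 and 46.0 with Cinnamomi Cortex at 500 µg/mL. The doses of 100 and 20 µg/mL gave 61.9, 46.0 and 52.1, and 70.1, 58.9 and 65.0 CPM. Replicate 1, which lies in the set of the vehicle, was the highest at each dose, and at 500 µg/mL it too was below every vehicle library. The log2 difference at 500 µg/mL was -0.72 ± 0.09 (adjusted p = 1.5e-07), and -0.54 with the set term (adjusted p = 1.1e-07). At 100 µg/mL it was -0.60 ± 0.09 and -0.42. SAMD9 averaged 80.9 CPM in the vehicle. At 500 µg/mL it averaged 65.6 with Astragali Radix, 67.7 with Cnidii Rhizoma, 64.1 with Samul-tang and 71.8 with Sagunja-tang.

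The other members called at 500 µg/mL were spread over the roles. DDX60 had 4.35, 5.39 and 4.36 CPM in the vehicle and 2.97, 3.57 and 3.36 CPM with the extract, a log2 difference of -0.50 ± 0.12 (adjusted p = 0.0029, 0.052 without replicate 2 of the vehicle). IRF1, a factor that can act without STATs, had 32.4, 34.6 and 28.2 against 26.3, 26.7 and 27.3 CPM, a difference of -0.25 ± 0.06 (adjusted p = 0.0018). IFIT3, the partner that stabilises IFIT1, had 7.68, 8.20 and 8.78 against 6.13, 6.01 and 6.26 CPM, a difference of -0.42 ± 0.11 (adjusted p = 0.0084). In all of them the groups did not overlap. IFITM1, on 1 to 23 counts per library, had a log2 difference of -2.34 ± 0.58 (adjusted p = 0.0039, 0.15 without replicate 2 of the vehicle), and reads of the near-identical IFITM genes may be split between them. IRF9 (-0.44 ± 0.11), OAS2 (-0.85 ± 0.25), MX1 (-0.47 ± 0.15) and IFI44 (-0.59 ± 0.16) lost their calls with the set term, at adjusted p values of 0.082, 0.076, 0.10 and 0.051. The ISG15 system was not called, and ISG15 itself differed by 0.15 ± 0.12 with overlapping groups.

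**Figure D4:**
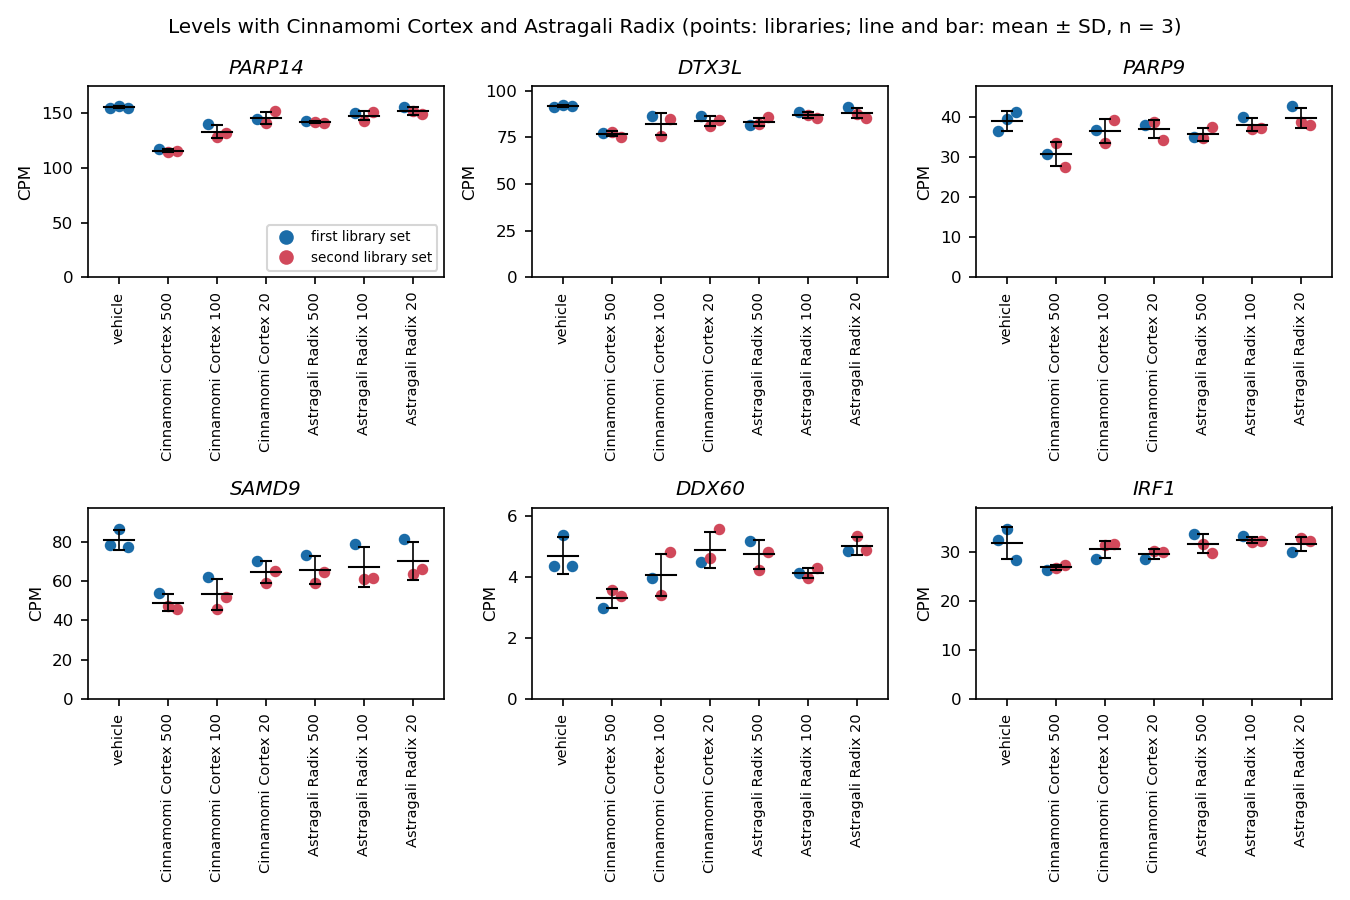
CPM (vertical axes, from 0) of PARP14, DTX3L, PARP9, SAMD9, DDX60 and IRF1 in each library of the vehicle, Cinnamomi Cortex and Astragali Radix at 500, 100 and 20 µg/mL (horizontal axes). Points are libraries coloured by library set, lines and bars are mean ± SD of 3; PARP14 falls to 115 to 117 with Cinnamomi Cortex at 500 µg/mL.

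PARP14, SAMD9 and DDX60 were also lower in comparisons that do not use the vehicle. Against 20 µg/mL of the same extract, 8 members were lower at 500 µg/mL and 0 higher (5.61% and 4.60% of all genes): PARP14 (-0.33 ± 0.04, adjusted p = 4.0e-08), SAMD9 (-0.40 ± 0.09, adjusted p = 0.0031), DDX60 (-0.55 ± 0.12, adjusted p = 0.00098), IRF9 (-0.42 ± 0.11), IFIT3 (-0.38 ± 0.11), PARP9 (-0.27 ± 0.08), OAS2 (-0.84 ± 0.25) and IFITM1 (-2.03 ± 0.59). The first 3 kept their calls with each library left out in turn, and the count was 4 without replicate 3 at 500 µg/mL. Against Astragali Radix at 500 µg/mL, 6 were lower and 0 higher (5.83% and 4.97% of all genes): PARP14 (-0.29 ± 0.04, adjusted p = 5.3e-07), SAMD9 (-0.42 ± 0.09, adjusted p = 0.0015), DDX60 (-0.52 ± 0.12, adjusted p = 0.0020), IRF1 (-0.24 ± 0.06, adjusted p = 0.0028), OAS3 (-0.17 ± 0.05) and IFITM1 (-2.09 ± 0.59). The first 4 kept their calls with each library left out, and OAS3 lost its call without replicate 1 of Cinnamomi Cortex (adjusted p = 0.15). Both comparisons use the same 3 libraries of Cinnamomi Cortex, and without replicate 2 of these the counts were 6 and 5. In this fit DTX3L was called in neither. It averaged 77 CPM at 500 µg/mL, 84 at 20 µg/mL and 83.3 with Astragali Radix at 500 µg/mL.

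At 100 and 20 µg/mL edgeR called 0 members between Cinnamomi Cortex and Astragali Radix (0.0673% and 0% of all genes), with 5 and 3 lower and 0 higher at an unadjusted p under 0.05 (4.95% and 3.42% of all genes), and DESeq2 called 0. The 500 against 20 µg/mL change itself differed between the plants for 1 of 41 members, a share no higher than the 2.57% of all genes in either direction. This was PARP14, by -0.23 ± 0.06 on the log2 scale (adjusted p = 0.013). The call was lost without replicate 3 of Cinnamomi Cortex at 20 µg/mL (adjusted p = 0.063) and without the filter on low counts (adjusted p = 0.18). PARP14 had 143, 142 and 141 CPM with Astragali Radix at 500 and 156, 152 and 149 CPM at 20 µg/mL. SAMD9 was added with the set term (-0.30, adjusted p = 0.049, with 3.99% of all genes called).

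Sensors and targets outside the 42 genes were also lower in part with Cinnamomi Cortex at 500 µg/mL. TLR3, which senses double-stranded RNA in endosomes, had 2.47 CPM and 4.33 in the vehicle, a log2 difference of -0.79 ± 0.18 (adjusted p = 0.0012). It was also lower than with Astragali Radix (-0.79 ± 0.17) and than at 20 µg/mL (-0.70 ± 0.18). IFNE had 4.00 CPM and the vehicle 7.01 (-0.82 ± 0.15, adjusted p = 6.4e-05). This was not particular to the extract, as IFNE lay below the vehicle in every treated group tested. It was also called lower with Cinnamomi Cortex at 100 µg/mL (-0.64) and with Sagunja-tang at 500 (-0.53) and 100 µg/mL (-0.51). None of these further calls was made with the set term. TLR3 differed by -0.64 (adjusted p = 0.013) and IFNE by -0.69 (adjusted p = 0.0011) with the set term. Of 15 adaptors and kinases of nucleic acid sensing TLR3 and EIF2AK2 (PKR, -0.22 ± 0.05, and -0.16 with the set term, adjusted p = 0.014) were lower, while MAVS (-0.01 ± 0.05) and ADAR (-0.06 ± 0.04) were not called. Of 38 other interferon-stimulated genes 9 were lower than in the vehicle, including DDX60L (-0.39 ± 0.09) and TNFSF10 (TRAIL, -0.35 ± 0.11), and 1 was higher, IFI30 (0.26 ± 0.06). With the set term 4 of them were lower and 1 higher. The shares of all genes in the same comparison were 6.69% lower and 6.22% higher, and 5.99% and 5.80% with the set term. Of 14 receptor and signalling genes 1 was lower, IFNGR1 (-0.21 ± 0.06). Of 16 antigen presentation genes 3 were lower: ERAP2 (-0.27 ± 0.05), ERAP1 (-0.22 ± 0.06) and TAPBP (-0.18 ± 0.05). TNFSF10, IFNGR1 and TAPBP lost their calls with the set term (adjusted p = 0.21, 0.16 and 0.069). With 1 library left out the adjusted p reached 0.19 for TNFSF10 and 0.082 for IFI30 (both without replicate 3 of Cinnamomi Cortex), 0.13 for IFNGR1 and 0.055 for ERAP1 (both without replicate 1 of the vehicle) and 0.10 for TAPBP (without replicate 3 of the vehicle). In the same libraries 4 of 9 colon epithelium markers were higher than in the vehicle and 0 lower, or 2 higher and 1 lower with the set term. Their sum was 12100 to 13600 CPM, and its part in the results was not tested.

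The other single plants gave few calls. RIGI was lower with Rehmanniae Radix Preparata at 500 µg/mL (0.232% of all genes lower, 0.404% higher), with 10.8, 8.84 and 10.8 CPM. The vehicle had 13.0, 14.0 and 12.5 CPM. The groups did not overlap, and the log2 difference was -0.38 ± 0.08 (adjusted p = 0.015, 0.19 without replicate 2 at that dose, and 0.057 and 0.14 without replicates 1 and 2 of the vehicle). It was -0.38 with the set term (adjusted p = 0.0085), the only call among the members (1.25% of all genes in either direction). It was 1 of 12 members lower, with 1 higher, at an unadjusted p under 0.05 (9.10% of all genes). No call was made at 100 or 20 µg/mL (0.208% and 0.434% of all genes), where DESeq2 also called 0 and 3 were lower and 1 higher at an unadjusted p under 0.05 at each dose (6.47% and 6.02% of all genes).

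Cnidii Rhizoma gave 0 calls by edgeR at 500, 100 and 20 µg/mL (1.48%, 0.147% and 0.293% of all genes), with 5, 3 and 2 lower and 1, 1 and 2 higher at an unadjusted p under 0.05 (11.8%, 6.76% and 7.34% of all genes). DESeq2 called 1, 0 and 0 lower. With the set term (2.58% of all genes at 500 and 0.391% at 100 µg/mL) PARP14 (-0.14, adjusted p = 0.034) and SAMD9 (-0.26, adjusted p = 0.013) were lower at 500 µg/mL and SAMD9 (-0.26, adjusted p = 0.035) at 100 µg/mL. Astragali Radix gave 0 calls by edgeR (3.58%, 2.51% and 1.39% of all genes), with 6, 2 and 1 lower and 2, 4 and 6 higher at an unadjusted p under 0.05 (19.8%, 18.8% and 16.0% of all genes), while DESeq2 called 3 lower at 500 and 1 higher at 20 µg/mL. The fit with the set term also called 0 at each dose (0.825%, 0.569% and 0.257% of all genes). Between 500 and 20 µg/mL edgeR and DESeq2 called 0 members in Astragali Radix, Cnidii Rhizoma and Rehmanniae Radix Preparata (0.0734%, 0.428% and 0.177% of all genes), with 10, 1 and 6 lower and 0, 1 and 1 higher at an unadjusted p under 0.05, which 5.61%, 7.44% and 8.09% of all genes passed.

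Cnidii Rhizoma and Rehmanniae Radix Preparata, ingredients of Samul-tang in its classical recipe, were also compared with each other. Both tools called 0 members at 500, 100 and 20 µg/mL (0.147%, 0% and 0% of all genes), with 1 higher and 1 lower at an unadjusted p under 0.05 at 500 µg/mL and 0 at the lower doses (5.40%, 2.24% and 3.57% of all genes). The dose change did not pass the test between them either (0 members by either tool, 0 at an unadjusted p under 0.05, and 0.0122% and 3.33% of all genes).

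Paeoniae Radix had 1 library per dose, so its values have no replicate check. IFI27 was at 9.63, 8.24 and 14.4 CPM at 500, 100 and 20 µg/mL, where the highest vehicle library had 8.28. SAMD9 was at 61.7, 67.7 and 67.6 CPM, below the vehicle's lowest of 77.4. OAS3 was at 94.6, 103 and 91.9 CPM and OAS2 at 2.23, 2.38 and 3.00 CPM, near the vehicle and below every Sagunja-tang library.

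**Figure D5:**
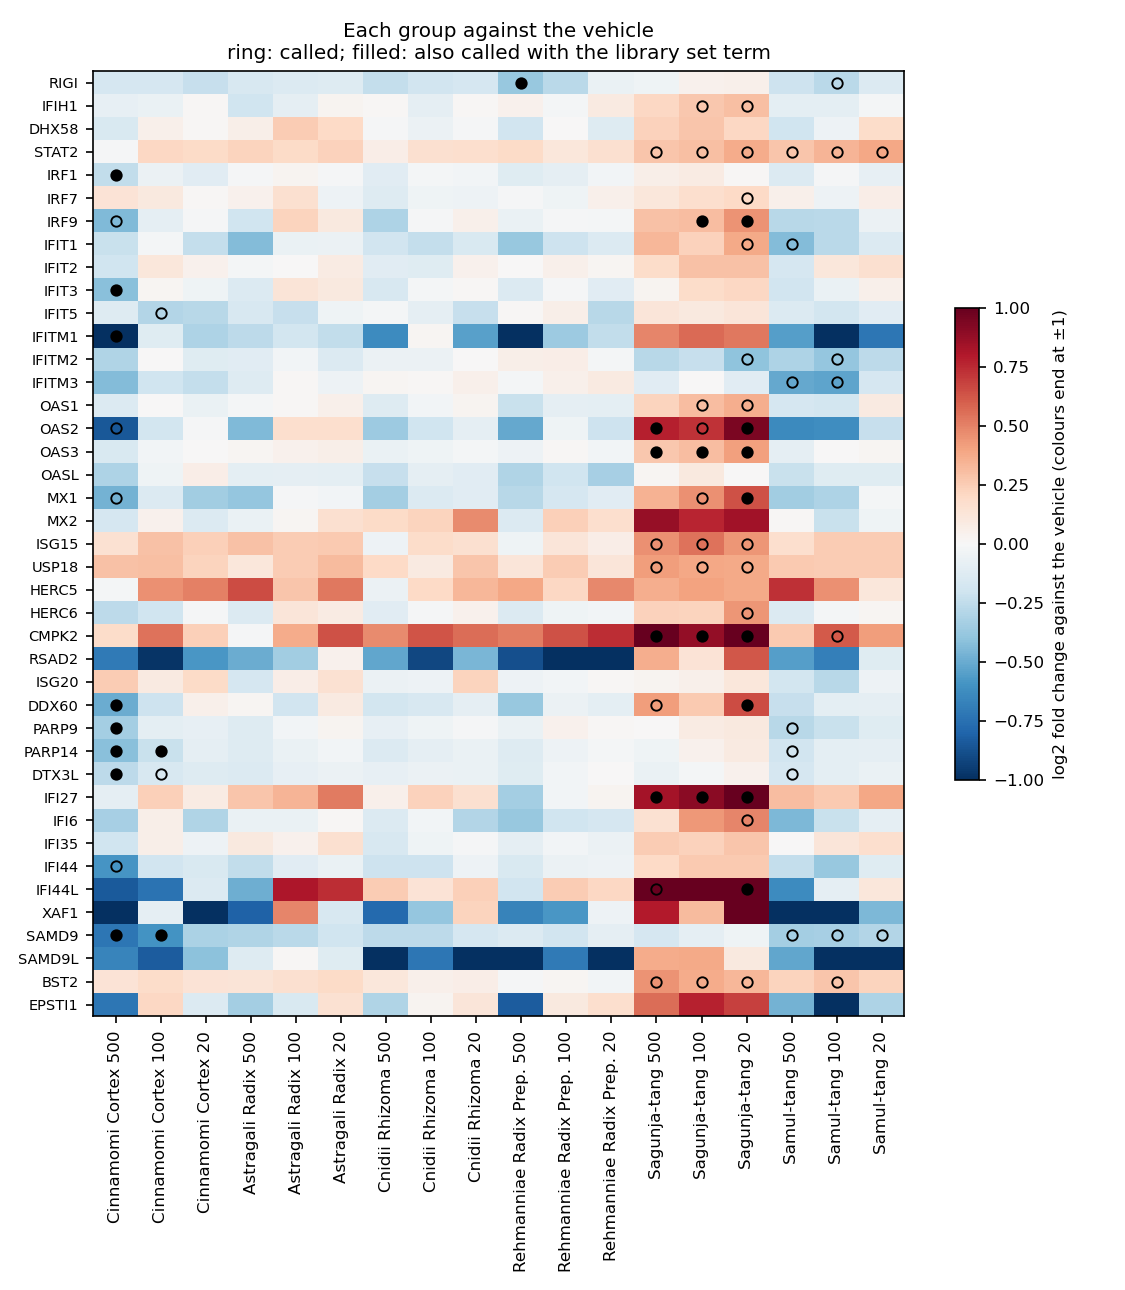
Log2 fold change against the vehicle of the 41 tested members (rows, by role) in 18 treated groups (columns, doses in µg/mL), with colours ending at ±1. Rings mark calls and filled rings those also called with the library set term; IRF9, OAS3, CMPK2 and IFI27 in Sagunja-tang and PARP14 and SAMD9 in Cinnamomi Cortex carry filled rings at more than 1 dose.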

How the data were processed

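The 60 libraries were directional mRNA-seq libraries of HT29 cells from RNA with an integrity number above 7, per the labels' protocols. The deposited table holds expected counts per gene, made by the authors with FastQC 0.11.9, Trim Galore 0.6.5, STAR 2.7.3a and RSEM 1.3.3 on GRCh38 (hg38), per the submitters' processing notes. Neither the annotation release nor the strand setting was given in the sources used here. Of its 273 columns, 60 matched a sample label and 213 were not used. Values were rounded to whole numbers, which changed 8.8% of them. Symbols came from a gene name table for 56558 of 60675 IDs and from GENCODE 29 for 497 more.

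Libraries were grouped by their labels. The low-count filter was filterByExpr (min.count 10). Libraries were scaled by TMM (factors 0.938 to 1.043) and tested with edgeR 4.0.16 (glmQLFit and glmQLFTest, R 4.3.3) over 57 libraries in 19 groups, with Benjamini-Hochberg adjustment over all 16356 genes in each of 36 comparisons and a call at an adjusted p under 0.05. Paeoniae Radix was left out of tests. CPM are rounded counts over the TMM-scaled library total, times 1e+06, and log2 means by library use CPM + 0.5. Alternatives were RLE factors, DESeq2 1.42.0, no low-count filter, a library set term, a replicate block, both together, each library set alone and leaving out each library. Counts of called members by DESeq2, with the replicate block or with a library left out are given without their own share of all genes. The library set coefficient and the principal component were added after seeing the data. The 57 replicate pairs differed beyond sampling noise, with chi-square per degree of freedom of 2.53 to 29.4. Same-numbered replicates of Cinnamomi Cortex and Astragali Radix at 100 µg/mL deviated together from their group means (correlations 0.25, 0.12 and 0.15). In both plants replicate 1 lies in the first library set and replicates 2 and 3 in the second, and the part of the set in this was not tested. The replicate block fits a shift per replicate number shared by all 57 libraries, so it does not pair these groups alone. It called 0 members there, as did the fit without it. At 20 µg/mL the correlations were 0.25, 0.03 and 0.10 (0 called in both fits). At 500 µg/mL the correlations were 0.22, -0.05 and 0.22, and the replicate block called 9 members lower where the fit without it called 6. Between 500 and 20 µg/mL they were 0.33, 0.05 and 0.18 within Astragali Radix (0 called in both fits). Within Cinnamomi Cortex they were 0.19, -0.00 and 0.19 (9 called with the block and 8 without). The script steps were tested on simulated data.

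The members and lists were chosen with earlier results of these data known. Every member could be named. Of other lists, the 4 called genes with the largest changes in each direction and a mean log2 CPM of at least 1 were named, with JAK1, MAVS, ADAR, EIF2AK2, IRF3, IFNB1, the IFNL genes, IFNAR1 and IFNLR1. IFNE and IFNA1 among the interferon counts, IFNGR1, NLRC5, ERAP1, ERAP2 and TAPBP were chosen after their values were seen. Results for some genes of these lists are not reported here.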

Additional observations from a re-analysis of the deposited data

Results flagged for a closer look

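The change of PARP14 between 500 and 20 µg/mL differed between Cinnamomi Cortex and Astragali Radix, by -0.23 ± 0.06 on the log2 scale (adjusted p = 0.013, edgeR's quasi-likelihood test of the difference of the changes). The same test called 2.57% of all genes, and 1 of 41 members is no higher a share. The call was lost without replicate 3 of Cinnamomi Cortex at 20 µg/mL (adjusted p = 0.063) and without the low-count filter (adjusted p = 0.18), and the library set term added SAMD9. PARP14 averaged 116 CPM with Cinnamomi Cortex at 500 µg/mL against 146 at 20 µg/mL.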

How the results depend on the processing

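None of the results counted below changed direction, but signs of uncalled members could. With Cinnamomi Cortex at 500 µg/mL, 2 of the 4 genes of the ISG15 system were above the vehicle. With the set term it was 1 of 4. Counts of called members are given as the value with the stated setting, against that of the fit as described in parentheses. DESeq2 called 1 (0) for Cinnamomi Cortex 20, 3 (0) for Astragali Radix 500, 1 (0) for Astragali Radix 20, 1 (0) for Cnidii Rhizoma 500 and 11 (7) for Samul-tang 500, all against the vehicle. RLE factors gave 2 (0) for Astragali Radix 500. The first library set alone, where Cinnamomi Cortex has 1 library per dose, gave 3 (12) for Cinnamomi Cortex 500, 0 (4) for 100 and 0 (1) for Rehmanniae Radix Preparata 500. The library set term gave, against the vehicle, 2 (4) for Cinnamomi Cortex 100, 2 (0) and 1 (0) for Cnidii Rhizoma 500 and 100, 5 (10), 4 (12) and 8 (19) for Sagunja-tang and 0 (7), 0 (7) and 0 (2) for Samul-tang at 500, 100 and 20. It gave 1 (0) for Cinnamomi Cortex against Astragali Radix at 100 and 2 (1) for the difference of their dose changes. Without the low-count filter the counts were 1 (0) for Cinnamomi Cortex 20, 2, 1 and 2 (0 each) for Astragali Radix, 1 and 1 (0 each) for Cnidii Rhizoma 500 and 100, and 11 (7), 11 (7) and 6 (2) for Samul-tang. They were 15 (8) and 12 (7) for Sagunja-tang against Samul-tang at 100 and 20, and 1 (0) and 1 (0) for Cinnamomi Cortex against Astragali Radix at 100 and 20.

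The replicate block gave 1 (0) for Cinnamomi Cortex 20, 3 (0) and 1 (0) for Astragali Radix 500 and 100 and 1 (0) for Cnidii Rhizoma 500, and moved no other count by over 1.5 times. The replicate block with the library set term gave 2 (4) for Cinnamomi Cortex 100, 1 (0) for Astragali Radix 100, 2 (0) and 1 (0) for Cnidii Rhizoma 500 and 100, 2 (1) for Rehmanniae Radix Preparata 500, 5 (10), 3 (12) and 9 (19) for Sagunja-tang and 0 (7), 0 (7) and 0 (2) for Samul-tang. It gave 13 (8) and 1 (0) for 500 against 20 in Cinnamomi Cortex and Cnidii Rhizoma, 10 (6) and 1 (0) for Cinnamomi Cortex against Astragali Radix at 500 and 100 and 2 (1) for the difference of their dose changes.

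Leaving out 1 library in turn gave, against the vehicle, 0 to 2, 0 to 1 and 0 to 3 for Astragali Radix, 8 to 13, 2 to 4 and 0 to 2 for Cinnamomi Cortex, 5 to 14, 4 to 13 and 11 to 20 for Sagunja-tang, 3 to 9, 4 to 10 and 1 to 2 for Samul-tang (500, 100 and 20 each) and 0 to 2 for Rehmanniae Radix Preparata 500. It gave 4 to 9, 4 to 7 and 3 to 10 for Sagunja-tang against Samul-tang, 4 to 8 for Cinnamomi Cortex 500 against 20 and 0 to 1 for the difference of the dose changes. Of the single-gene results, 102 of those with a DESeq2 value kept their side of the threshold and 6 lost it; the library set term kept 66 and lost 47, the replicate block kept 113 and lost 0, and both together kept 65 and lost 48. RLE factors kept 112 and lost 1, no low-count filter kept 100 and lost 13, the first library set alone kept 3 and lost 14, and the second kept 21 and lost 3. Over all fits leaving out 1 library, 486 values kept their side and 198 lost it. Fits that leave out libraries or add terms have fewer residual degrees of freedom, and the set term also moved the estimates, as for STAT2. The cause of the lost calls was not tested. Members with few counts, such as XAF1, RSAD2, SAMD9L and IFITM1, allow only large changes to be called.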
